A study of Mus musculus with 22 samples.

Results

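The genes described here are Chac1 and 9 other genes of glutathione metabolism, measured by RNA sequencing of whole mouse spinal cord. The 10 members were taken by symbol from the gene tables: Chac1, Chac2 and Ggct of glutathione breakdown, Gclc, Gclm and Gss of its synthesis, Gsr and Gpx4 of its redox cycle, and Cth and Cbs of cysteine supply. All 10 were among the 38924 gene identifiers in the tables, and all 10 were among the 16974 genes with enough reads to be tested.

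The mice were 7 months old, on a B6N;B6J strain background, and carried 0, 1 or 2 copies of the E196K allele of Yars, the gene of cytosolic tyrosyl-tRNA synthetase. The allele changes a residue of an enzyme in which substitutions cause Charcot-Marie-Tooth neuropathy in people. There were 6 wild-type libraries (WT, no copy), 6 heterozygous libraries (HET, 1 copy) and 10 homozygous libraries (HOM, 2 copies), and the comparisons between genotypes therefore share libraries. Each library is named by its genotype and a number that only identifies it. The labels give no sex and no litter, and whether every library is a mouse of its own is not stated, so the tests measure the spread between these libraries, which may in part be technical. The allele changes the protein, so transcript levels do not check the genotype labels.

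Glutathione is a tripeptide of glutamate, cysteine and glycine and the main soluble thiol of cells. It is made in the cytosol by glutamate-cysteine ligase and then glutathione synthetase, with cysteine usually the limiting building block. Inside cells it is cleaved by the ChaC enzymes to 5-oxoproline and cysteinylglycine. Chac1 is known as a target of ATF4, which drives transcription in the integrated stress response, and in nervous tissue also as an inhibitor of Notch maturation.

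Promoter sequences of the mouse RefSeq annotation were available for 7 members (10 windows), each running from 250 bases before to 50 bases after an annotated start. They are shown for Chac1, the member that was called in these data, for its paralogue Chac2, and for Gclm, a textbook target of the antioxidant factor NRF2. All 3 are from build GRCm38.p6, are written 5′ to 3′ on the gene's own strand, and end before the annotated gene begins. They lie at chr2:119350992-119351228 (plus strand) for Chac1, chr11:30986366-30986615 (minus strand) for Chac2 and chr3:122245307-122245556 (plus strand) for Gclm. Capitals mark matches to TGATGCAA, the composite element bound by C/EBP and ATF factors, to its variant TGACGCAA, and to TGACNNNGC, the core of the antioxidant response element, on either strand.
Chac1: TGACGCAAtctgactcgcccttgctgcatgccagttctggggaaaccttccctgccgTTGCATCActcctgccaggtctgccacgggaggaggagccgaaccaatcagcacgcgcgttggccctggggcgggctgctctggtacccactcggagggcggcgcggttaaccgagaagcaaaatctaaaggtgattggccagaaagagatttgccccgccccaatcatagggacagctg
Chac2: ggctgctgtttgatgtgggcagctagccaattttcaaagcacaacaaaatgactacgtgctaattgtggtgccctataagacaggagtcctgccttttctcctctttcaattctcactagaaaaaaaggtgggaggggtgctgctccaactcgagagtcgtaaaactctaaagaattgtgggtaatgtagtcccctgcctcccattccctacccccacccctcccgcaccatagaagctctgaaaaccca
Gclm: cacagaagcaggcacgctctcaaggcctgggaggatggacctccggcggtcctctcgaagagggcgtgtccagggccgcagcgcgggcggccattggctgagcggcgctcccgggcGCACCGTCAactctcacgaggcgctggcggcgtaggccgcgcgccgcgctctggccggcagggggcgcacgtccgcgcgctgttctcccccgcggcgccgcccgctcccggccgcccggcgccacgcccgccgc

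In the Chac1 window TGACGCAA stands 250 bases and TTGCATCA, the reverse complement of TGATGCAA, 193 bases before the RefSeq start. Of 32851 RefSeq promoter windows of the same length, 0.895% held TGATGCAA and 0.490% held TGACGCAA on either strand. All 3 motifs begin with the same 3 letters, and the matches in Chac1 do not overlap each other. Both motifs were present in 5 windows, which belong to Chac1, Herpud1, Samd8 and Plekhh3. The motifs were chosen with the Chac1 sequence in view, so this count is a description of that sequence. The Chac2 window printed above held none of the 3 motifs. TGACNNNGC was common, in 12.4% of all windows, and among the members it was found in the windows of Gclm (134 bases before the start) and Ggct. A match shows only that these letters are present.

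Each library held 24448477 to 42805931 rounded gene counts. The spinal cord origin was visible in every library: neuron markers summed to 3886 to 5141 counts per 1000000 (CPM), oligodendrocyte markers to 15129 to 22733 CPM and motor neuron markers to 108 to 188 CPM. HOM 3 stood apart. Its 5 Schwann cell markers summed to 2262 CPM against at most 4.35 CPM in every other library, its 4 fibroblast markers to 435 against at most 59.3 CPM, its 5 neutrophil markers to 342 against at most 16.9 CPM, its 4 erythroid markers to 1445 against at most 877 CPM, and its 4 skeletal muscle markers to 11.8 against at most 0.762 CPM. Its 4 sensory ganglion neuron markers summed to 0.882 CPM, within the range of the other libraries. Its sums of neuron (3886 CPM), motor neuron (108 CPM), oligodendrocyte (15129 CPM), astrocyte (2082 CPM) and microglia (141 CPM) markers were the lowest of all libraries. Its endothelial marker sum was the highest, at 209 against at most 171 CPM. HOM 3 was also the lowest HOM library for 7 members (Chac1, Ggct, Gclc, Gclm, Gss, Cbs and Gpx4) and the highest for Gsr. Results without it are given for Chac1, Gss, Gsr, Cbs, Nupr1, the counts of called members and the Chac1 relations. Its part in the results was not tested otherwise. Library titles carry 3 number prefixes, whose meaning the labels do not state. Prefix 39992 holds 5 HOM libraries, 1 WT library and no HET library, while prefix 40412 holds 2 HOM, 3 WT and 5 HET libraries, so the prefix is partly confounded with genotype.

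Chac1 encodes the stress-induced ChaC glutathione-specific gamma-glutamylcyclotransferase and lies at chr2:119351229-119354381 on the plus strand (GRCm38, GENCODE M21). It was higher in HOM spinal cord than in both other genotypes and was the only member called in any comparison. The 6 WT libraries ran from 6.23 to 7.69 CPM with a median of 6.94 CPM. The 6 HET libraries ran from 5.81 to 7.39 CPM with a median of 6.68 CPM, overlapping the WT range. The 10 HOM libraries ran from 8.15 to 12.5 CPM with a median of 10.0 CPM. All 10 HOM libraries, HOM 3 at 8.15 CPM included, lay above the highest WT and the highest HET library. Means were 6.86 ± 0.514 CPM (SD, n = 6) in WT, 6.60 ± 0.524 CPM (n = 6) in HET and 10.0 ± 1.22 CPM (n = 10) in HOM, from 165 to 457 counts per library.

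**Figure D1:**
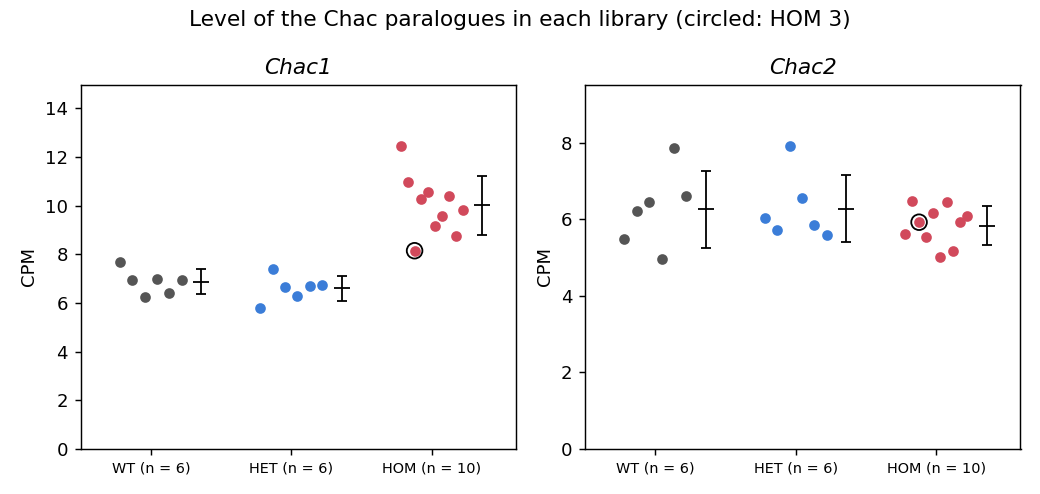
Levels of Chac1 and Chac2 in counts per 1000000 (CPM, vertical axis from 0) in each library of the 3 genotypes; points are libraries, the bar beside each group is the mean with its SD, and the circle marks HOM 3. The 10 HOM libraries lie above every other library for Chac1 (8.15 CPM or more against 7.69 CPM or less), while the 3 genotypes overlap for Chac2.

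Chac1 rose 1.46-fold in HOM against WT (log2 0.55, SE 0.0757, 95% interval of the fold 1.31 to 1.63, adjusted p = 0.000359, edgeR quasi-likelihood test with Benjamini-Hochberg adjustment over all tested genes). It rose 1.52-fold in HOM against HET (log2 0.60, SE 0.0762, interval 1.36 to 1.69, adjusted p = 7.03e-05). In HET against WT the fold was 0.961 with an interval of 0.851 to 1.08 (adjusted p = 1), so that a rise of the HOM size lay outside the interval. Across all genes 0.0943% were called at adjusted p below 0.05 in HOM against WT, 0% in HET against WT and 0.106% in HOM against HET. Genes whose 2 groups did not overlap at all made up 0.124% in HOM against WT, 0.141% in HET against WT and 0.23% in HOM against HET. Without HOM 3 the Chac1 rise over WT was 1.49-fold (adjusted p = 4.31e-05). Within the prefixes 39992, 40411 and 40412 the HOM mean of log2(CPM + 0.5) exceeded the WT mean by 0.41, 0.53 and 0.43. These differences rest on 5 HOM and 1 WT, 3 HOM and 2 WT, and 2 HOM and 3 WT libraries. No libraries overlapped within a prefix, which follows from the lack of overlap over all libraries and adds nothing to it. With the prefix as a factor the rise was 0.50 against WT (adjusted p = 0.00232) and 0.54 against HET (adjusted p = 0.00561) on the log2 scale. In whole tissue, more cells that express a gene and more of its RNA per cell cannot be told apart. Summed neuron markers overlapped between the genotypes, at 4476 to 4995 CPM in WT, 4540 to 5076 CPM in HET and 3886 to 5141 CPM in HOM. Median sums in WT, HET and HOM were 4764, 4817 and 4526 CPM for neuron markers and 154, 160 and 139 CPM for motor neuron markers. They were 21376, 21550 and 20134 CPM for oligodendrocyte, 3226, 3181 and 2851 CPM for astrocyte, and 179, 184 and 178 CPM for microglia markers. For endothelial markers they were 156, 164 and 163 CPM. Whether these bear on Chac1 was not tested.

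If each copy of the allele added equally on the log2 scale, HET would lie at the midpoint of WT and HOM. Chac1 in HET lay below that midpoint by a log2 difference of -0.33 (SE 0.0717, 95% interval -0.48 to -0.18, unadjusted p = 0.000108). After adjustment over all genes this did not pass (adjusted p = 0.243 in edgeR), in a comparison that called 0.00589% of genes. DESeq2 called it (log2 -0.33, adjusted p = 0.0332). The difference was about as large without HOM 3 (log2 -0.35, unadjusted p = 2.12e-05, adjusted p = 0.0883) and with the prefix as a factor (log2 -0.29, unadjusted p = 0.000987, adjusted p = 1), and was called in neither fit.

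Chac2 encodes the constitutive paralogue, which cleaves glutathione slowly, and lies at chr11:30976707-30986350 on the minus strand, wholly inside the locus of Asb3 on the opposite strand. Its 3 genotypes overlapped. It ran from 4.96 to 7.86 CPM in WT (median 6.33), from 5.58 to 7.93 CPM in HET (median 5.95) and from 5.01 to 6.48 CPM in HOM (median 5.93). The WT and HET libraries were the more scattered, with SDs of 1.00 and 0.876 CPM against 0.498 CPM in HOM. The fold in HOM against WT was 0.933 (interval 0.822 to 1.06, adjusted p = 0.830), which leaves out the size of the Chac1 rise. Asb3 was at a mean of 13.0 CPM in WT and 12.6 CPM in HOM, and how reads of the overlapping pair were divided is not stated.

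Ggct, at chr6:54982580-54992950 on the minus strand, encodes the cyclotransferase that acts on gamma-glutamyl amino acids rather than on glutathione itself. Its libraries ran from 16.4 to 18.8 CPM in WT (median 17.0), from 16.6 to 18.1 CPM in HET (median 16.8) and from 16.5 to 18.9 CPM in HOM (median 18.0). The groups overlapped almost completely, with a fold in HOM against WT of 1.03 (interval 0.974 to 1.08, adjusted p = 0.840).

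The 3 synthesis genes were called in no comparison. Gclc, the catalytic subunit of glutamate-cysteine ligase (chr9:77754535-77794485, plus strand), ran from 54.9 to 61.0 CPM in WT, from 55.4 to 59.7 CPM in HET and from 56.1 to 64.5 CPM in HOM. Medians were 57.2, 56.7 and 58.4 CPM, and only HOM 8 at 64.5 CPM lay above every WT and HET library. Its fold in HOM against WT was 1.02 with an interval of 0.974 to 1.06.

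Gclm, the modifier subunit that lowers the ligase's requirement for glutamate (chr3:122245557-122270732, plus strand), ran from 74.0 to 86.8 CPM in WT (median 79.9), from 74.5 to 89.2 CPM in HET (median 79.9) and from 73.1 to 86.9 CPM in HOM (median 79.7). The 3 medians were almost the same. Its fold in HOM against WT was 0.984 (interval 0.927 to 1.05), and its sign was not stable: it was above 1 in 2 of the alternative settings. These were the limma fits on TPM, in which 71.3% and 71.5% of all tested genes were higher, against 53.75% in the main fit. In HOM against WT the sign also changed in 2 settings each for Cbs and Gpx4, and in 1 for Cth. The annotation places the pseudogene Gm6061 and the opposite-strand transcript Gm17494 within the Gclm locus.

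Gss, glutathione synthetase (chr2:155563181-155592810, minus strand), ran from 26.2 to 30.2 CPM in WT (median 29.0), from 27.1 to 30.7 CPM in HET (median 28.8) and from 24.5 to 29.2 CPM in HOM (median 27.3). The HOM libraries reached lower, with 4 of 10 below the lowest HET library and 2 of 10 below the lowest WT library, HOM 3 being the lowest of all. The fold was 0.953 in HOM against WT (interval 0.898 to 1.01, adjusted p = 0.815). It was 0.946 in HOM against HET (interval 0.892 to 1.00, adjusted p = 0.596). Without HOM 3 the folds were 0.964 and 0.957. Gss overlaps Acss2 on the opposite strand, which was the more abundant at a mean of 87.3 CPM in WT and 85.0 CPM in HOM, and the antisense transcripts Gssos1 and Gssos2.

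Among the 10 members, Gsr of the redox cycle was the only one besides Chac1 with an unadjusted p below 0.05 in HOM against WT. Gsr, glutathione reductase (chr8:33652523-33698163, plus strand), returns oxidised glutathione to its reduced form. It ran from 22.4 to 24.6 CPM in WT (median 24.2), from 22.4 to 27.2 CPM in HET (median 25.8) and from 23.9 to 29.0 CPM in HOM (median 25.0). Of the HOM libraries 8 of 10 lay above the highest WT library, and HOM 3 was the highest. HOM 1, HOM 4 and HOM 10 did so narrowly, at 24.7 against 24.6 CPM. The fold in HOM against WT was 1.07 (interval 1.00 to 1.14, unadjusted p = 0.0475, adjusted p = 0.815). Without HOM 3 it was 1.05 (unadjusted p = 0.0942). With the prefix as a factor the log2 change of Gsr against WT was 0.08 in place of 0.09 (unadjusted p = 0.125). The HET libraries stood at a fold of 1.05 over WT (interval 0.981 to 1.13).

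Gpx4, the selenoenzyme that reduces lipid hydroperoxides at the expense of glutathione and guards against ferroptosis (chr10:80047166-80056439, plus strand), was the most abundant member. It ran from 200.5 to 217.9 CPM in WT (median 215.7), from 201.6 to 221.9 CPM in HET (median 216.2) and from 196.8 to 225.2 CPM in HOM (median 207.7). The fold in HOM against WT was 0.981 (interval 0.939 to 1.02). The annotation lists a pseudogene copy, Gpx4-ps2, to which the authors' counting could have assigned some reads.

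Cbs and Cth act in sequence to make cysteine from homocysteine. Cbs, cystathionine beta-synthase (chr17:31608894-31637238, minus strand), ran from 31.1 to 43.5 CPM in WT (median 37.8), from 34.5 to 43.7 CPM in HET (median 38.8) and from 29.0 to 39.6 CPM in HOM (median 36.8). The highest HOM library lay below the highest WT and HET libraries, and HOM 3 was the lowest at 29.0 CPM. The fold was 0.967 in HOM against WT (interval 0.874 to 1.07) and 0.931 in HOM against HET (interval 0.841 to 1.03). Without HOM 3 the folds were 0.988 and 0.951.

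Cth, cystathionine gamma-lyase, which releases cysteine and is another known target of ATF4 (chr3:157894248-157925077, minus strand), ran from 2.15 to 3.29 CPM in WT (median 2.84), from 1.92 to 2.92 CPM in HET (median 2.62) and from 2.03 to 4.12 CPM in HOM (median 3.02). It was the member with the fewest reads, 47 to 143 counts per library, and its intervals were the widest. Of the HOM libraries 5 of 10 lay above every HET library and 4 of 10 above every WT library. The fold was 1.22 in HOM against HET (log2 0.29, interval of the fold 0.999 to 1.49, unadjusted p = 0.0513, adjusted p = 0.567) and 1.10 in HOM against WT (interval 0.900 to 1.34, adjusted p = 0.854). With the prefix as a factor the log2 change against HET was 0.08. The HOM mean was highest in prefix 39992, at 3.50 CPM in its 5 HOM libraries. It was 2.68 CPM in the 3 of prefix 40411 and 2.47 CPM in the 2 of prefix 40412. Single libraries did not all follow this order, with HOM 8 of prefix 40411 at 3.23 CPM and HOM 3 of prefix 39992 at 2.74 CPM.

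**Figure D2:**
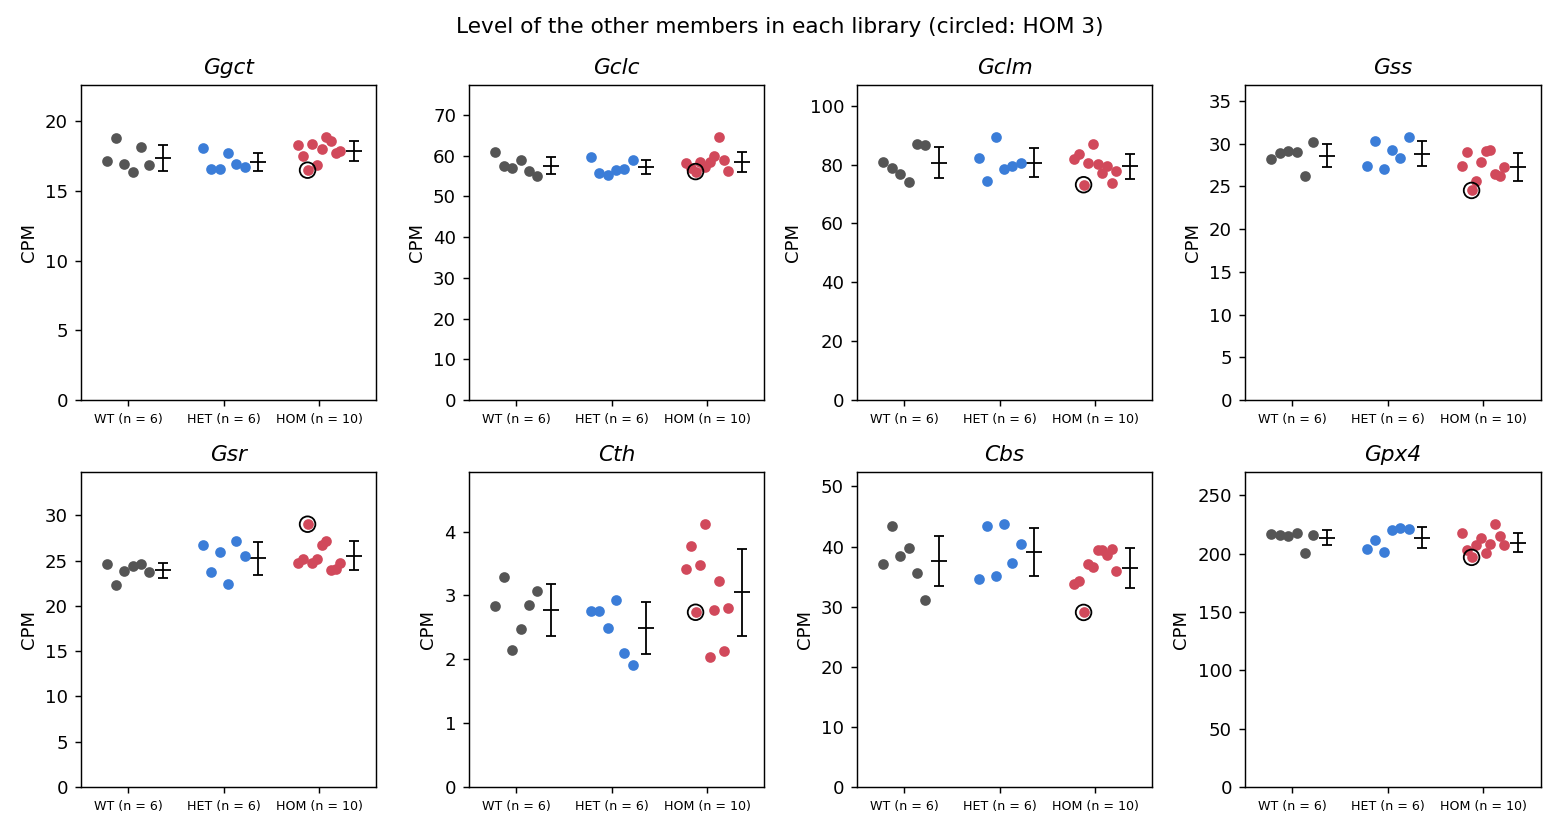
Levels of the other 8 members in counts per 1000000 (CPM, vertical axes from 0, scaled per gene) in each library; points are libraries, the bar beside each group is the mean with its SD, and the circle marks HOM 3. The genotypes overlap for all 8 genes, and HOM 3 is the lowest HOM library for Ggct, Gclc, Gclm, Gss, Cbs and Gpx4 and the highest for Gsr.

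Counted together, 1 of 10 members was called in HOM against WT and 0 in HET against WT. In HOM against HET 1 was called and in HET against the midpoint 0, the call being Chac1 each time. Over all tested genes 0.0943%, 0%, 0.106% and 0.00589% were called in these comparisons. The members were chosen with earlier results of these data known, so their counts are a description. The member counts were the same without HOM 3. DESeq2 and limma gave them too, except that DESeq2 also called Chac1 against the midpoint. By direction alone the fitted change was above 0 for 5 and below 0 for 5 members in HOM against WT, with a median log2 change of 0.0009 against 0.0065 over all tested genes. In HET against WT it was above 0 for 4 and below 0 for 6 members. An unadjusted p below 0.05 was reached by 2 members in HOM against WT, by 0 in HET against WT and by 1 in HOM against HET, where all genes gave 5.91%, 3.41% and 8.80%.

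**Figure D3:**
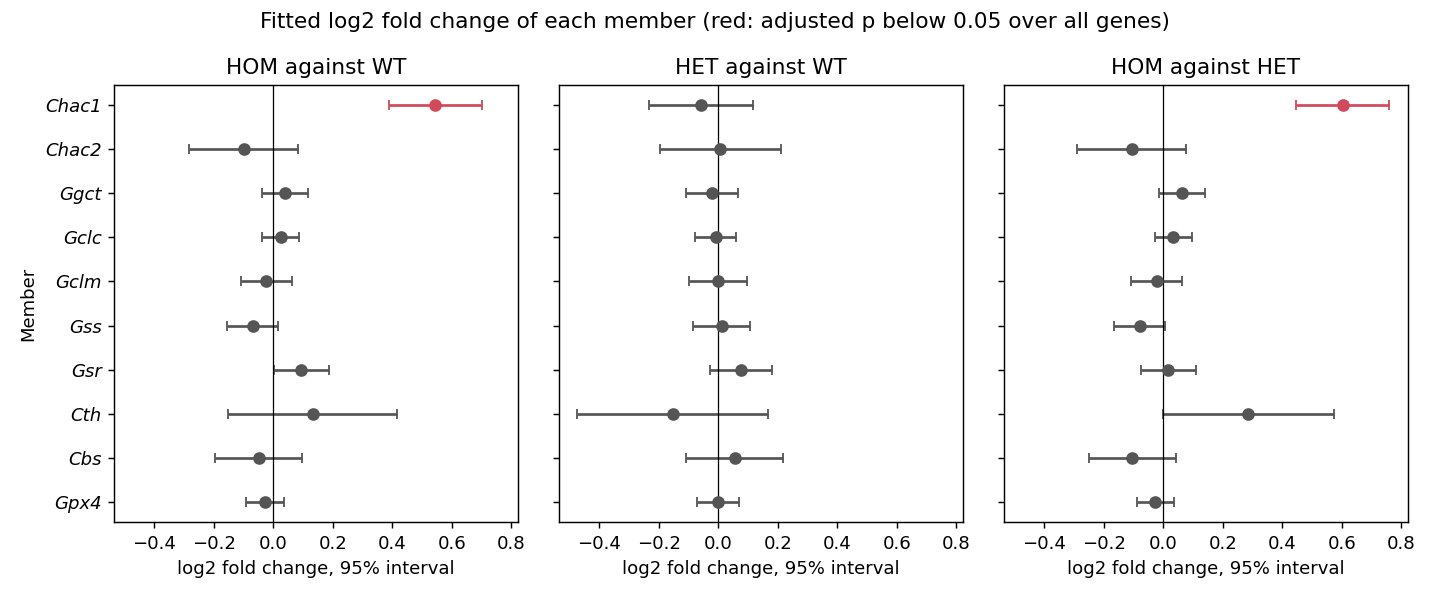
Fitted log2 fold change (horizontal axis) of each member (vertical axis) in the 3 comparisons between genotypes, with 95% intervals from edgeR; red marks an adjusted p below 0.05 over all genes. Chac1 stands at 0.55 against WT and 0.60 against HET, and the intervals of the other 9 members include 0 in all 3 panels, except that of Gsr in HOM against WT, whose lower bound is 0.0011.

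Levels of different genes can be compared only per length, on the authors' TPM scale (transcripts per 1000000). In WT the order of mean TPM was Gpx4 at 522, Gclm at 54.0, Cbs at 35.5, Gclc at 30.7, Gss at 29.7, Gsr at 18.5, Ggct at 16.5, Chac2 at 11.1, Chac1 at 8.41 and Cth at 3.24. Neighbours whose libraries overlapped in WT were Cbs and Gclc, Gclc and Gss, Gsr and Ggct, and Chac2 and Chac1. Chac1 was thus a minor transcript in WT, near its paralogue and far below the synthesis genes. The order was the same in HET, where Chac1 at 8.35 ± 0.887 TPM lay below Chac2 at 11.3 ± 1.39 TPM (SD, n = 6) with no overlap. In HOM the paralogues changed places, with Chac1 at 12.6 ± 1.22 TPM and Chac2 at 10.7 ± 1.01 TPM (n = 10), although their libraries overlapped.

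**Figure D4:**
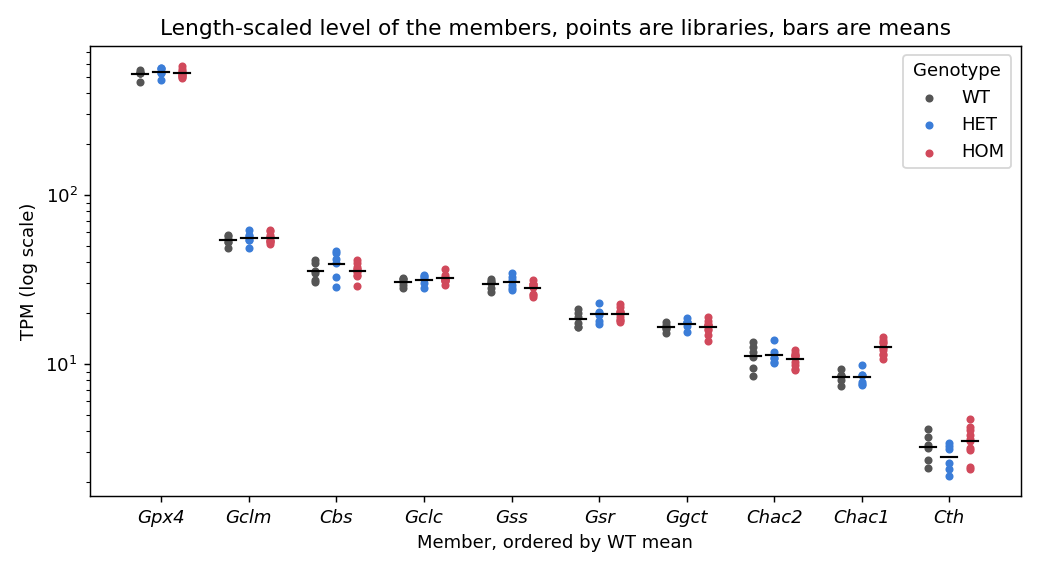
Level of each member in TPM (transcripts per 1000000, log scale) by genotype, with members ordered by their WT mean; points are libraries and bars are means. The order runs from Gpx4 (522 TPM in WT) to Cth (3.24 TPM), and the HOM points of Chac1 (mean 12.6 TPM) lie above its WT points (mean 8.41 TPM).

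The genes around this pathway were examined as 10 lists of 153 genes, of which 140 were tested. In HOM against WT 1 of the 140 was called, Atf4, and 18 (12.9%) had an unadjusted p below 0.05, where 5.91% of all tested genes did and 0.0943% were called. In HET against WT 0 were called and 5 (3.57%) had an unadjusted p below 0.05, beside 3.41% of all genes. In HOM against HET 0 were called and 22 (15.7%) had one, beside 8.80% of all genes. The lists were chosen with earlier results of these data known, so these shares describe the lists and do not test them. DESeq2 called Mgst3 besides Atf4 in HOM against WT, 0 genes in HET against WT, and Nupr1 in HOM against HET, while limma on the TPM values called Atf4 alone. The next paragraphs give each list in HOM against WT, where a gene that is not called is given by its values.

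Atf4, which encodes that factor, ran from 74.3 to 82.8 CPM in WT (median 76.4), from 79.1 to 89.5 CPM in HET (median 86.0) and from 81.8 to 97.8 CPM in HOM (median 91.6). It rose 1.17-fold in HOM against WT (log2 0.23, SE 0.0383, adjusted p = 0.00461) and was called under every alternative and with each library left out in turn (adjusted p up to 0.0432). In HET against WT the fold was 1.11 (unadjusted p = 0.00221, adjusted p = 1). The HET mean of Atf4 therefore lay between the other genotypes, 0.03 from their midpoint on the log2 scale (adjusted p = 0.979), whereas that of Chac1 lay at the WT level. Whether the 2 genes differ in this was not tested.

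Of the 9 genes of the ATF4 list, 8 were higher and 1 lower in HOM against WT, with a median log2 change of 0.20 and 4 with an unadjusted p below 0.05. Ddit3, which encodes the stress factor CHOP, had a mean of 13.6 ± 0.994 CPM in WT and 15.5 ± 1.33 CPM in HOM (fold 1.15, adjusted p = 0.547). Nupr1, a small stress-induced nuclear protein, is named here after its values were seen. It ran from 0.874 to 1.37 CPM in HET and from 1.49 to 4.50 CPM in HOM. The 2 groups did not overlap, which held for 0.23% of all tested genes in HOM against HET. There Nupr1 had an adjusted p of 0.0516. Without HOM 3 its log2 change was 0.78 in place of 0.96 and its adjusted p 0.00954, and DESeq2 called it with all libraries (adjusted p = 0.00413). Leaving out other single libraries gave adjusted p from 0.0435 without HOM 2 to 0.157 without HET 3, with a call also without HOM 10 and without WT 4. It was not called with the prefix as a factor (adjusted p = 0.608) or by limma on log2(TPM + 1) (adjusted p = 0.128). In HOM against WT the libraries of Nupr1 overlapped, with WT from 1.10 to 1.93 CPM, and the fold was 1.36 (adjusted p = 0.815). Without HOM 3 the log2 change against WT was 0.26 in place of 0.44. Nupr1 was also lower in HET than in WT, at a fold of 0.699 (log2 -0.52, unadjusted p = 0.0281 in edgeR, not called). The difference between HOM and HET thus includes a low HET level.

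The 20 tested glutathione transferases, which couple glutathione to other molecules, were divided, with 12 higher and 8 lower and a median log2 change of 0.01. Mgst3, a membrane-bound member of that group, had a mean of 56.3 ± 1.68 CPM in WT, 55.7 ± 1.12 CPM in HET and 51.7 ± 2.26 CPM in HOM. Its fold was 0.920 in HOM against WT (unadjusted p = 0.000387, adjusted p = 0.212). DESeq2 called it lower in HOM against WT (adjusted p = 0.0250). Mgst3 was not called with the prefix as a factor (adjusted p = 0.545) or by limma on log2(TPM + 1) (log2 -0.09, adjusted p = 0.740). Gstm7 had a fold of 0.890 (adjusted p = 0.815).

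Of the 16 tested genes of NRF2 and its targets, 6 were higher and 10 lower, with a median log2 change of -0.03. Hmox1, the haem-degrading enzyme, had a mean of 5.48 ± 1.31 CPM in WT, 4.86 ± 0.701 CPM in HET and 7.33 ± 2.38 CPM in HOM. Its HOM libraries were scattered from 5.48 to 12.6 CPM and overlapped the WT range, with a fold of 1.34 (unadjusted p = 0.0208, adjusted p = 0.815). Taldo1, of the pentose phosphate pathway, had a fold of 0.954 (adjusted p = 0.815).

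The cystine, cysteine and glutamate supply list had 7 higher and 6 lower of 13 tested genes. Slc3a2, the heavy chain shared by several amino acid exchangers, had a mean of 106.8 ± 5.08 CPM in WT and 113.8 ± 4.43 CPM in HOM (fold 1.07, unadjusted p = 0.0107, adjusted p = 0.754). Slc1a4, a neutral amino acid transporter, had a fold of 1.07 (adjusted p = 0.815). The glutathione transport list had 7 higher and 2 lower of 9. Slc25a39, which carries glutathione into mitochondria, had a mean of 61.6 ± 4.00 CPM in WT and 67.0 ± 2.92 CPM in HOM (fold 1.09, unadjusted p = 0.00507, adjusted p = 0.643), and Slc25a11, another mitochondrial carrier, had a fold of 1.05.

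The peroxidase, glutaredoxin and thioredoxin list had 16 higher and 4 lower of 20, with Txnrd1 (thioredoxin reductase) at a fold of 1.05 and Glrx5 at 1.12. The methionine cycle and cysteine use list had 12 higher and 5 lower of 17, with Ahcyl2 at a fold of 0.948 and Got1 at 1.05. The breakdown list for glutathione outside the cell had 5 higher and 2 lower of 7, with Ggt7 at a fold of 1.03 and the dipeptidase gene Cndp2 at 1.04. The ferroptosis list had 10 higher and 4 lower of 14, with Sephs2 at a fold of 1.04 and Ncoa4 at 0.986. The Notch list had 12 higher and 3 lower of 15, with Hey2 at a fold of 0.904 and Notch4 at 1.15. The adjusted p of these 10 genes ran from 0.643 to 0.866, and no group is described as changed from such counts.

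Within the 10 HOM libraries the level of Chac1 was compared with that of each other member on the log2(CPM + 0.5) scale, with two-sided permutation tests of 100000 resamples and adjustment over the 9 relations. By Pearson's r 0 of the 9 relations passed, and by Spearman's rho 2 did, those with Gclm and Cth. Gclm had the highest r, with r = 0.76 (p = 0.0106, adjusted p = 0.0956) and Spearman's rho = 0.85 (p = 0.00288, adjusted p = 0.0176). For Cth the values were r = 0.70 (p = 0.0242, adjusted p = 0.109) and rho = 0.84 (p = 0.00391, adjusted p = 0.0176). Without the 2 libraries farthest from the Chac1 median, HOM 1 and HOM 3, r was 0.79 for Gclm and 0.94 for Cth.

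These relations differed by scale. On log2(TPM + 1) r was 0.03 for Gclm (adjusted p = 0.934) and 0.57 for Cth (adjusted p = 0.791). Over all 22 libraries, each centred on its genotype mean, r was 0.31 for Gclm (adjusted p = 0.304) and 0.50 for Cth (adjusted p = 0.257). The prefixes hold 5, 3 and 2 HOM libraries, too few for a correlation within any of them, and both Chac1 and Cth had their highest HOM mean in prefix 39992 (10.5 and 3.50 CPM). With the 10 HOM libraries centred on their prefix means and permuted within prefixes, a check added after the data were seen, r was 0.71 for Gclm (p = 0.117, adjusted p = 0.211, rho = 0.52) and 0.65 for Cth (p = 0.0428, adjusted p = 0.142, rho = 0.68), and 0 of the 9 relations passed by r or by rho. For Cbs r was 0.05 over the 10 libraries (p = 0.896, rho = -0.37, p = 0.296), -0.77 without HOM 1 and HOM 3, and -0.86 without HOM 3 alone (permutation p = 0.00169, adjusted p = 0.0152). That value rests on whether HOM 3 is included. Of the other 6 members, r ran from -0.56 for Gsr to 0.52 for Gpx4, with adjusted p of 0.278 or more.

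**Figure D5:**
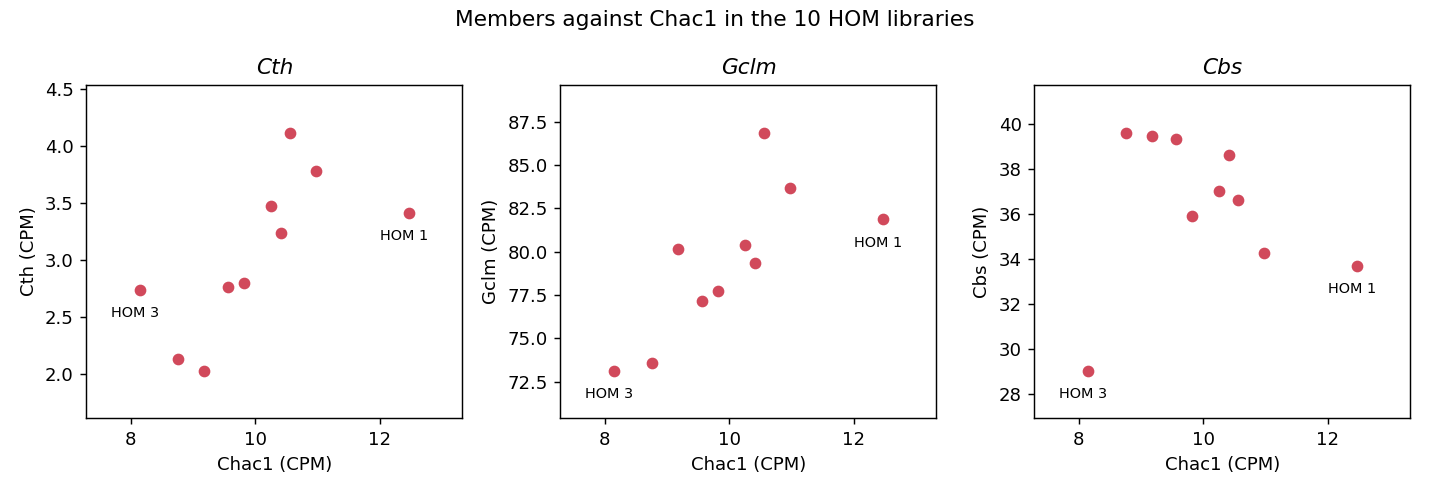
Levels of Cth, Gclm and Cbs (vertical axes, CPM) against Chac1 (horizontal axis, CPM) in the 10 HOM libraries, each point a library; axes do not start at 0. HOM 1 and HOM 3 are the libraries farthest from the Chac1 median, and for Cbs the HOM 3 point (29.0 CPM) lies apart from a falling row of the other points.

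A likeness to Chac1 was measured over the 22 libraries among 14776 genes, as Pearson's r of log2(CPM + 0.5) after centring on each genotype mean. Genes with clone-style names or no symbol, Xist and Y-linked genes were then left out. The most alike of the rest were Tubb3 (r = 0.82), Suclg1 (r = 0.79), Slc25a5 (r = 0.79), Bscl2 (r = 0.79) and Ndufs4 (r = 0.78). Within single genotypes their r ran from 0.24 (Slc25a5 in HET) to 0.98 (Bscl2 in WT). Tubb3 encodes a neuronal tubulin, and Suclg1, Slc25a5 and Ndufs4 encode mitochondrial proteins. The values of r share the depth and the composition of each library and are given as a description. They were not computed without HOM 3, whose Tubb3 level was the lowest of all libraries (365 against at least 396 CPM). Tubb3 is also among the 5 neuron markers, whose sum was highest in HOM 1 (5141 CPM) and lowest in HOM 3 (3886 CPM), the libraries with the highest and lowest Chac1 among the HOM libraries. None of Tubb3, Suclg1, Slc25a5, Bscl2 and Ndufs4 was called in HOM against WT, with adjusted p from 0.819 to 0.914 in edgeR.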

How the data were processed

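Total RNA of whole spinal cord was made into libraries with stranded KAPA mRNA kits, per the labels' protocols. Per the submitters' processing notes, the tools were Bowtie2 2.2.0 and RSEM 1.2.12. The genome build, the annotation and the use of strand were not given in the sources used here. Per the file headers, the authors deposited an RSEM expected count and a TPM value (transcripts per 1000000) for every gene in each of 22 libraries. RSEM divides reads that fit several genes, and 14.4 to 16.2% of the deposited expected counts were not whole. They were rounded. Totals of 24448477 to 42805931 counts per library limit precision most for Cth.

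Gene symbols were matched by identifier for 37607 of 38924 genes, and positions come from GENCODE M21 (GRCm38). Promoter windows and their start sites come from RefSeq (GRCm38.p6).

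The main test was edgeR 4.0.16 (R 4.3.3) with TMM scaling, filterByExpr by genotype, a robust quasi-likelihood fit of all 22 libraries, and Benjamini-Hochberg adjustment over 16974 genes, called at adjusted p below 0.05. CPM (counts per 1000000) use the TMM-scaled total of the tested genes. Standard errors are the log2 fold change divided by the square root of F. The fits were also run on simulated counts with no prefix effect and no library like HOM 3. That run checks the code and not these data. Alternatives were DESeq2 1.42.0, limma 3.58.1 on log2(TPM + 1) and log2(TPM + 0.1), RLE scaling, no filter on low counts, only the groups compared, the title prefix or the Xist level as a covariate, and each library left out in turn. Correlations, also (chosen after seeing the data) centred on the prefix, used 100000 permutations in Python 3.11.15 with numpy 2.4.6.

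Named genes are every member, list genes called in any comparison, and the 5 genes most like Chac1. The 2 genes per list with the smallest p in HOM against WT at a mean of at least 1 CPM are also named. Clone-style names, Xist and Y-linked genes were left out of the genes most like Chac1. The members and lists were chosen with earlier results of these data known.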

Additional observations from a re-analysis of the deposited data

Results flagged for a closer look

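Each member was checked in each genotype for a library whose distance to its nearest neighbour is large against the whole range of its group. Of 30 such groups 2 had one, and chance gives about 1 in 20 groups. Gclc in HOM 8 was the highest of its group at 64.5 CPM, with the next library at 60.1 CPM, a gap of 0.529 of the range. Gpx4 in WT 5 was the lowest of its group at 200.5 CPM, with the next library at 215.5 CPM, a gap of 0.861 of the range.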

How the results depend on the processing

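Chac1 was called in HOM against WT and in HOM against HET under all 8 alternatives and with each of the 22 libraries left out, with adjusted p up to 0.00342 and 0.00561. No other member was called in any comparison under any of these settings, and DESeq2 called 1 member (Chac1, -0.33 on the log2 scale) in HET against the midpoint. The counts over all genes moved more. In HOM against WT, where 16 genes were called (15 higher, 1 lower), DESeq2 called 28 (22 higher, 6 lower). In HOM against HET, where 18 genes were called (13 higher, 5 lower), DESeq2 called 76 (35 higher, 41 lower), limma on log2(TPM + 1) 11, limma on log2(TPM + 0.1) 12 (10 higher, 2 lower), and the fit with the title prefix 10. Leaving out 1 library gave 10 to 39 genes there, with 39 without HOM 10, 11 without HOM 1 or without HOM 4, and 10 without HET 3. In HET against the midpoint, where 1 gene was called, DESeq2 called 10, limma 7 with either pseudocount, and leaving out 1 library gave 1 to 4 (4 without HOM 10, 2 without HET 1). In HET against WT 0 genes were called by edgeR, DESeq2 and limma, and 578 had an unadjusted p below 0.05 in edgeR. The cause of these moves was not tested. Among the relations with Chac1, 0 passed by Pearson's r over the 10 HOM libraries and 0 to 1 with 1 library left out: Gclm without HOM 1 (r = 0.85) or without HOM 5 (r = 0.84), and Cbs without HOM 3, where r turned from 0.05 to -0.86, while leaving out another library gave 0.0162 (without HOM 8) to 0.302 (without HOM 1). By Spearman's rho 2 passed (Gclm and Cth), 3 without HOM 3, 0 without HOM 7, HOM 9 or HOM 10, and 2 without any other library. By r or rho 0 passed on the TPM scale, over all 22 centred libraries, or with the HOM libraries centred on their prefix, an alternative added after seeing the data. No paired analysis was possible because the replicate numbers were given in accession order and pair no libraries. Depth limits Cth most, at 47 to 143 counts per library.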

Other observations

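Among the 20 tested glutathione transferases, a list picked out here after its counts were seen, 3 were higher and 17 lower in HET against WT, and 15 higher and 5 lower in HOM against HET. Over all tested genes 51.9% and 53.0% were higher in these comparisons. None of the transferases was called in either in edgeR, and 0 and 4 had an unadjusted p below 0.05, beside 3.41% and 8.80% of all genes. The median log2 changes were -0.05 and 0.06. The HET libraries enter both comparisons, so these counts are not independent of each other.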
